A study of Mus musculus with 4 samples.

Results

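The contractile smooth muscle programme is described here through 10 member genes, Acta2, Tagln, Myh11, Myl9, Cnn1, Actg2, Des, Lmod1, Actc1 and Myocd, which were given by name and are 10 of the 3891 gene rows used from the processed table. The cells came from digested small intestines of wild type, adult male C57Bl/6 mice (8 weeks by the labels, with no treatment or transgene named) and were sorted for PDPN (gp38) and against CD45, EpCAM and CD31. Part of them went into 2 10X Genomics libraries and part onto 2 Smartseq2 plates. How many mice gave a library is not given in the sources used here, so the library was the replicate. The p-values measure only spread between 2 libraries, not between mice. For each gene that spread is pooled over all cell groups of a fit and drawn towards that of the other genes. The p-values therefore need not follow the SD of the 2 library differences, which is printed as ±. The Smartseq2 values were corrected by the authors onto the 10X values and were not used for the groups below.

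Smooth muscle contracts when calcium-activated myosin light chain kinase phosphorylates the regulatory light chain of myosin II, whose motor then pulls on filaments of smooth muscle actin. Actin-binding proteins such as calponin and transgelin sit on those filaments, desmin filaments tie the apparatus to the cell's anchoring points, and leiomodin assembles new actin filaments. Myocardin, a coactivator of serum response factor, switches the programme on through a short DNA element called the CArG box, and in the villus thin strands of such muscle run along the core while stellate subepithelial cells form a sheath under the epithelium.

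Cells were grouped by genes that are not members, from the unique molecular identifiers (UMIs, counts of captured RNA molecules) recovered for each 10X cell. Cells with a UMI of Sox6 were called subepithelial. Of the rest, cells with a UMI of at least 2 of Hhip, Frem2 and Fbxl22 are called muscle-rule cells, those with at least 3 of Inmt, Penk, Vit and Scara5 mesothelial-like, those with at least 3 of Chodl, Dner, Thbs2 and Ptn Fibin type, those with Grem1 crypt and those with Lpl villus. The names are those of the rule and not the authors' own cell labels. In 10X library 1 and 10X library 2 the rule gave 285 and 2699 subepithelial cells, 57 and 299 muscle-rule cells, 328 and 1097 mesothelial-like cells, 100 and 692 Fibin type cells, 1002 and 4741 crypt cells and 587 and 3570 villus cells, of 2547 and 14344 cells in all, and 188 and 1246 cells met no rule. The last 4 named groups together are the other fibroblasts. Median depth was 8757 UMIs per cell in library 1 and 6874 in library 2, and the 6 named groups had medians of 5895 to 11064. The libraries shared 7 cell barcodes, 0.275% of those in library 1 and 0.0488% of those in library 2.

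Markers fitted the names unevenly. Subepithelial cells carried Pdgfra, the PDGF receptor of fibroblasts, in 97.5% and 97.0% of cells (library 1, library 2), and F3, tissue factor, in 61.4% and 54.4%. The list of 6 subepithelial markers, which includes Sox6 of the rule, summed to 57.3 and 56.0 UMIs per 10,000 in subepithelial cells, 37.3 and 36.8 in Fibin type cells and at most 13.1 in the other groups, and Sox6 was at 0 outside subepithelial cells by the rule. Muscle-rule cells were mixed, since Pdgfra was also detected in 75.4% and 74.2% of them and Npnt, which codes for nephronectin and is another gene of the smooth muscle marker list, in 24.6% and 32.1%. That list of 8 genes includes the 3 of the muscle rule, and its other 5 (Npnt, Kcnmb1, Pcp4l1, Synpo2 and Carmn) summed to 3.56 and 4.26 UMIs per 10,000 in muscle-rule cells and 3.75 and 3.03 in subepithelial cells, ranges that overlap. The same sum was at most 2.39 in the other fibroblast groups. Of these genes, Kcnmb1, Synpo2 and Carmn were themselves called higher in both groups than in the other fibroblasts. Synpo2, for example, stood at 0.712 and 0.932 in muscle-rule cells and 1.52 and 1.22 in subepithelial cells. The overlap of the sum is therefore not one of genes particular to muscle. Of the 6 pericyte markers in the table (of 9 listed), all were detected in subepithelial cells, Notch3 and Cox4i2 were at 0 in the muscle-rule cells of library 1, and the list's sum was lower in subepithelial cells (10.4 and 11.7) and in muscle-rule cells (15.5 and 20.7) than in villus cells (18.1 and 23.3). Muscle-rule cells with Npnt had 25.3 and 19.0, with Notch3 at 0 in both libraries, and mesothelial-like cells, part of the other fibroblasts, 4.09 and 6.45. The part of pericyte RNA in the results was not tested. Markers of interstitial cells of Cajal summed to 3.45 and 2.85 in subepithelial cells, against 0.469 and 0.507 in muscle-rule cells (Kit and Prkcq at 0), 0.729 and 0.829 in villus cells, 0.333 and 0.441 in crypt cells and 1.19 and 3.36 in Fibin type cells. In subepithelial cells Prkcq was at 0 in library 1. Glial markers summed to 3.65 and 3.60 in subepithelial cells, 2.38 and 2.81 in muscle-rule cells and 2.61 and 3.03 in villus cells. The part of these cells' RNA was not tested. Markers of immune, endothelial and epithelial cells summed to at most 0.328 UMIs per 10,000 in subepithelial and muscle-rule cells. Because the muscle-rule cells were mixed, some results on them are also given for the 14 and 96 that carried Npnt, a restriction chosen after the data were seen. The levels and folds of Actg2, Cnn1, Lmod1 and Myocd below are those of all muscle-rule cells, so cells without Npnt are part of them.

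The members fell into 2 classes. Acta2, Tagln, Myh11, Myl9 and Des were higher than in the other fibroblasts both in subepithelial cells and in muscle-rule cells, and are called shared. Cnn1, Actg2, Lmod1, Actc1 and Myocd were higher in muscle-rule cells than in either the other fibroblasts or the subepithelial cells, were not higher in subepithelial cells, and are called muscle only. By the same calls 10.7% of the 1779 genes tested were shared and 8.26% muscle only, against 5 and 5 of the 10 members. The muscle only genes passed the filter on low values (a UMI in at least 5% of the cells of a group compared) only through the muscle-rule cells, so that their direction there is a description and nothing is read from their number. With no filter, all 5 kept their calls in muscle-rule cells and none was called in subepithelial cells, where their adjusted p against the other fibroblasts lay between 0.424 and 0.988 (limma, Benjamini-Hochberg adjustment).

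**Figure D1:**
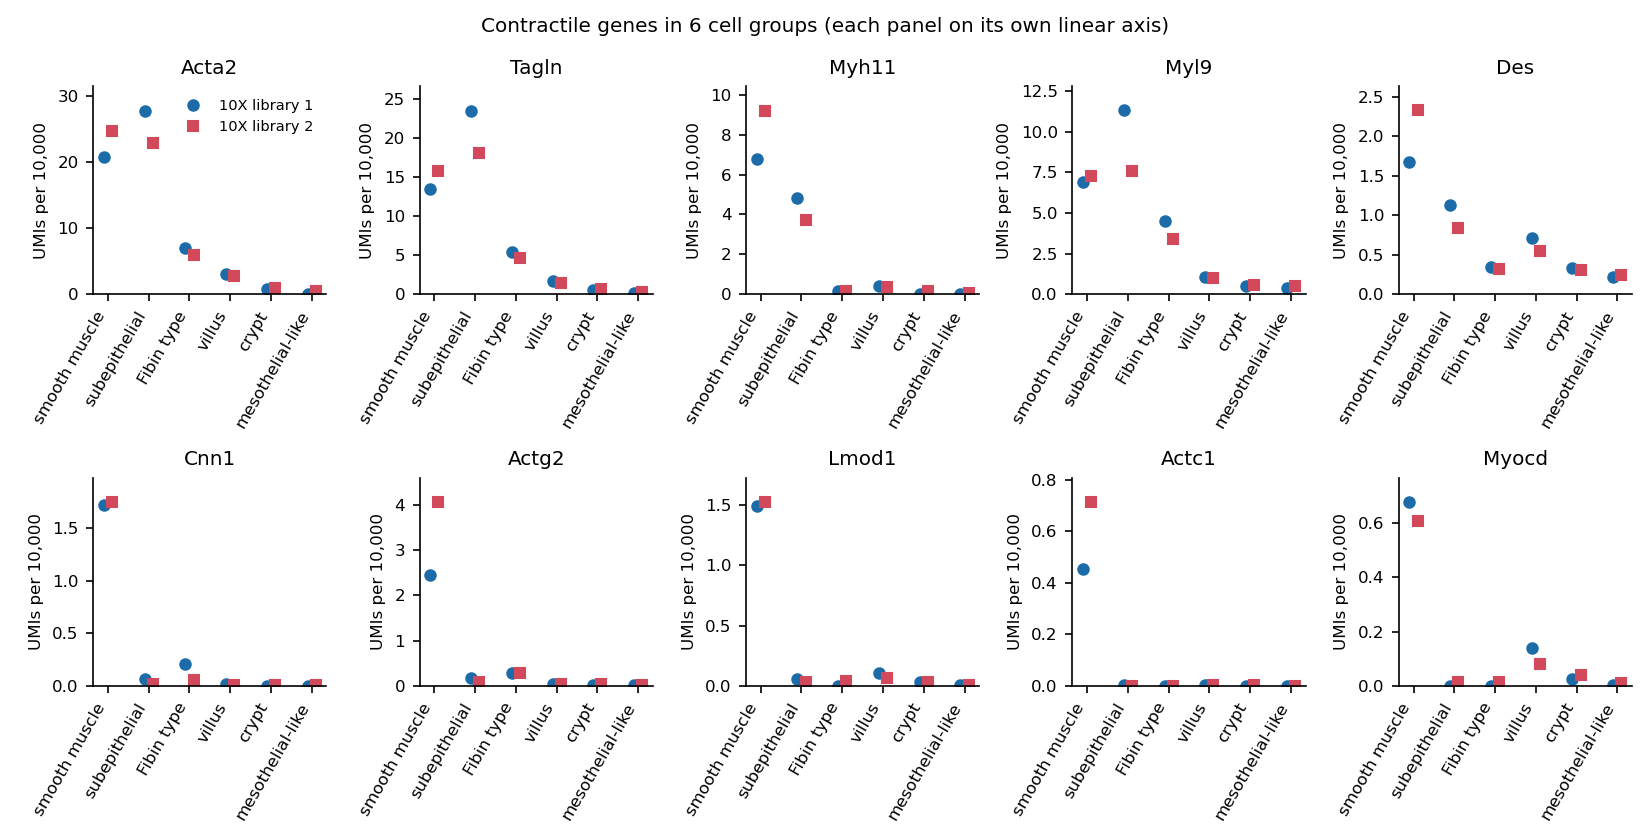
Summed UMIs of each member per 10,000 UMIs (linear y axis, 1 per gene) in 6 cell groups (x axis), with a circle for 10X library 1 and a square for 10X library 2. The upper 5 genes stand high in both smooth muscle (muscle-rule) and subepithelial cells, while the lower 5 stand high in the muscle-rule cells alone, for example Lmod1 at 1.49 and 1.52 against 0.0591 and 0.0352 in subepithelial cells.

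The classes can be set beside the promoters of the members. RefSeq promoters (build GRCm38.p6, 250 bases before to 50 bases after the start site) were found for 6 of the 10 members, Acta2, Myl9, Des, Cnn1, Lmod1 and Actc1. They were searched on both strands for the CArG box, a run of 6 A or T bases between a pair of C and a pair of G, which reads as the same pattern on either strand. An exact box lay in the promoters of Myl9 and Actc1, 2 of the 6, against 1.63% of 32851 promoters of the same length. Allowing 1 mismatch added Acta2 and Lmod1 (4 of the 6), against 21.1% of all promoters. Those 4 are printed because they hold the matches and come from both classes. Capitals mark each box with at most 1 mismatch, and a match is a description of letters only:
Acta2 (shared, chr19:34255324-34255623, minus strand): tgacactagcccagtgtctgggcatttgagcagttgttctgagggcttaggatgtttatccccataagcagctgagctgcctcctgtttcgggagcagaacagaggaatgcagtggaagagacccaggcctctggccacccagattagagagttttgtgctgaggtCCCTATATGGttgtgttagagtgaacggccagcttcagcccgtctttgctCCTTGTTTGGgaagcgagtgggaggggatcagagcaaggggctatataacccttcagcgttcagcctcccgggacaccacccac
Myl9 (shared, chr2:156775214-156775513, plus strand): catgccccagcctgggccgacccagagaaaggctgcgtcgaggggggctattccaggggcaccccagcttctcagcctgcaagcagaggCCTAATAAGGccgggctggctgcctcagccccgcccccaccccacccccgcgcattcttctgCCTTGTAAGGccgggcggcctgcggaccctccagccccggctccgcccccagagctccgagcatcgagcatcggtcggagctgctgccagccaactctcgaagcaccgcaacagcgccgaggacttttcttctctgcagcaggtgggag
Lmod1 (muscle only, chr1:135324563-135324862, plus strand): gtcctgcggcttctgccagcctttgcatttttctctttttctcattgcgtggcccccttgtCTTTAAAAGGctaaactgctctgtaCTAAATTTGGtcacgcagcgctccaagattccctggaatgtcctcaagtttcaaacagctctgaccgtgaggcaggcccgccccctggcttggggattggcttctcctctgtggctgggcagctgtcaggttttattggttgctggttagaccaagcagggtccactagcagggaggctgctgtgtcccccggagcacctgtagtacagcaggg
Actc1 (muscle only, chr2:114052826-114053125, minus strand): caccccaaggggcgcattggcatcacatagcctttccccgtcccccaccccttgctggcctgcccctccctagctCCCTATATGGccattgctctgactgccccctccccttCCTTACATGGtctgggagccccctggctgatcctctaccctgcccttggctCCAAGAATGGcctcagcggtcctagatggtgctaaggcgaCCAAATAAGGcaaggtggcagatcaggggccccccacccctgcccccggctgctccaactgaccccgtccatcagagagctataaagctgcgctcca

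The boxes of Acta2 begin at positions -84 and -34 from the start site, and both have 1 mismatch. Actc1 has the most matches of the 4 promoters, starting at -175, -138, -87 and -47, the last of them exact. Myl9 has its exact box at -161 and a second match at -99, and Lmod1 has matches at -189 and -164. Matches were thus present in both classes.

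Among the shared genes, Acta2 codes for the alpha actin of smooth muscle and is the usual marker of myofibroblasts. It lies at chr19:34241090-34255590 on the minus strand (GRCm38, GENCODE M21) with no overlapping gene. Its level was 27.8 UMIs per 10,000 in the subepithelial cells of library 1 and 22.8 in those of library 2, and 20.7 and 24.7 in muscle-rule cells. The ranges of these groups overlap, and they stand above Fibin type cells (6.95 and 5.93), villus cells (3.13 and 2.74), crypt cells (0.795 and 1.02) and mesothelial-like cells (0.0794 and 0.476), which do not overlap each other. Subepithelial cells exceeded the mean of the other fibroblasts 10.1-fold in library 1 and 8.98-fold in library 2, and the mean natural log value was higher by 2.13 ± 0.25 (SD, n = 2 libraries; adjusted p = 1.56e-08, limma). For muscle-rule cells the same difference was 1.36 ± 0.11 (adjusted p = 1.13e-06). At their own depth 95.1% and 90.1% of subepithelial cells had a UMI of Acta2, against 4.88% and 21.4% of mesothelial-like cells at a median of 9982 and 8041 UMIs.

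Tagln codes for transgelin, an actin-bundling protein of smooth muscle also called SM22, and had the same order of groups as Acta2 except at the top. Its level was 23.5 and 18.1 UMIs per 10,000 in subepithelial cells and 13.5 and 15.8 in muscle-rule cells, ranges that do not overlap. This order turned when muscle-rule cells were restricted to those with Npnt, as given below. Fibin type cells followed at 5.38 and 4.63, villus cells at 1.72 and 1.5, crypt cells at 0.587 and 0.636 and mesothelial-like cells at 0.134 and 0.284. Against the other fibroblasts the difference of mean natural log values was 2.07 ± 0.26 in subepithelial cells (adjusted p = 8.54e-09) and 1.18 ± 0.02 in muscle-rule cells (adjusted p = 1.13e-06). The gene lies at chr9:45929619-45936058, minus strand, and its span overlaps Pcsk7 and Gm48529 on the opposite strand. How strand was treated in counting is not given in the sources used here, so reads of these genes may not have been told apart.

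Myh11 codes for the heavy chain of smooth muscle myosin, the motor of the contractile filament, and is regarded as the most specific protein of the lineage. It was the shared gene with the sharpest step between groups. Levels were 4.82 and 3.71 UMIs per 10,000 in subepithelial cells and 6.78 and 9.21 in muscle-rule cells, whereas the highest level in any of the other fibroblast groups was 0.433, in the villus cells of library 1. Fibin type cells, which were next to the top for Acta2, Tagln and Myl9, had 0.156 and 0.155 UMIs of Myh11 per 10,000, below villus cells (0.433 and 0.350). The fold over the other fibroblasts was 30.6 and 20.1 in subepithelial cells (difference of mean natural log values 1.23 ± 0.15, adjusted p = 2.50e-07) and 43.1 and 50.0 in muscle-rule cells (0.96 ± 0.24, adjusted p = 4.65e-06). The gene lies at chr16:14194535-14291372, minus strand.

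Myl9 codes for the regulatory light chain whose phosphorylation starts contraction. Subepithelial cells had 11.3 and 7.55 UMIs per 10,000 and muscle-rule cells 6.90 and 7.26, and again Fibin type cells followed (4.48 and 3.39). Villus cells had 1.06 and 1.02, and crypt cells (0.492 and 0.561) lay just above mesothelial-like cells (0.415 and 0.480). The differences from the other fibroblasts were 1.49 ± 0.27 (adjusted p = 1.22e-07) in subepithelial cells and 0.74 ± 0.08 (adjusted p = 5.27e-05) in muscle-rule cells. The gene lies at chr2:156775420-156781658, plus strand.

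Des codes for desmin, the intermediate filament of muscle. In subepithelial cells it was the shared gene with the smallest fold over the other fibroblasts. In the muscle-rule cells of library 2 that was Myl9, at 5.33-fold. Levels of Des were 1.14 and 0.841 UMIs per 10,000 in subepithelial cells, 1.67 and 2.33 in muscle-rule cells and 0.709 and 0.549 in villus cells. Subepithelial cells stood 2.81-fold and 2.38-fold above the other fibroblasts (difference of mean natural log values 0.20 ± 0.01, adjusted p = 0.00122), and muscle-rule cells 4.13-fold and 6.62-fold (0.38 ± 0.13, adjusted p = 3.34e-05). Thinned to 2000 UMIs per cell, 14.5% and 12.9% of subepithelial cells had a UMI of Des against 10.8% and 9.04% of villus cells. In library 2 the exact 95% intervals (11.7% to 14.2% and 8.10% to 10.0%) do not overlap, and in library 1 they do. The gene lies at chr1:75360329-75368579, plus strand, and is overlapped by an antisense gene, Gm15179.

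All 5 tested members were higher in subepithelial cells than in the other fibroblasts, as were 40.7% of all genes tested there. The same 5 were higher in muscle-rule cells than in the other fibroblasts, against 22.5% of all genes tested, and passed the filter in both groups. These calls held under each of the alternatives that could be run.

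The muscle only genes began with the enteric actin. Actg2 codes for the gamma actin of smooth muscle, the main actin of the gut's muscle coat, and lies at chr6:83512905-83536265, minus strand. Its level was 2.45 and 4.07 UMIs per 10,000 in muscle-rule cells and 0.171 and 0.0853 in subepithelial cells, a fold of 14.4 and 47.7. Fibin type cells had 0.288 and 0.272, above the subepithelial cells, and carried a UMI in 16.0% and 14.7% of cells against 3.86% and 3.63% of subepithelial cells, although their median depth was lower (8655 and 7255.5 against 11064 and 8299). Mesothelial-like cells, given as a reference from among the other fibroblasts, had a UMI in 1.83% and 1.37% of cells. The level that free RNA gives was not measured. The 3 actins among the members shared no stretch of 50 bases in their annotated transcripts, so reads of that length belong to 1 of them.

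Actc1 codes for the actin of cardiac muscle, which some smooth muscle also makes, and lies at chr2:114047282-114053548, minus strand, overlapping the transcript A530058N18Rik on the other strand. It was the member closest to absent outside the muscle-rule cells. Muscle-rule cells held 26 and 176 UMIs of it (0.452 and 0.713 per 10,000), while 285 and 2699 subepithelial cells held 1 and 2 UMIs. All of the muscle-rule UMIs came from cells with Npnt, of which 21.4% and 38.5% had a UMI.

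Cnn1 codes for calponin, an actin-binding inhibitor of the myosin motor, and lies at chr9:22099216-22109630, plus strand. Muscle-rule cells had 1.72 and 1.75 UMIs per 10,000 and subepithelial cells 0.0689 and 0.0200. The subepithelial value of library 1 came from 21 UMIs in 1 of 285 cells, and 19 of 2699 cells had a UMI in library 2 (0.704%), against 0.365% of mesothelial-like cells. As for Actg2, Fibin type cells ranked second with 0.204 and 0.0575.

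Lmod1 codes for leiomodin, which nucleates actin filaments in smooth muscle. It lies at chr1:135324807-135368065, plus strand, and overlaps a small nuclear RNA gene, Gm22796, on the other strand. Its level was 1.49 and 1.52 UMIs per 10,000 in muscle-rule cells against 0.0591 and 0.0352 in subepithelial cells, a fold of 25.3 and 43.3. Villus cells were next in order, at 0.109 and 0.0644.

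Myocd codes for myocardin, the coactivator that drives the programme, and lies at chr11:65176561-65269989, minus strand. It was found at 0.678 and 0.608 UMIs per 10,000 in muscle-rule cells. The 285 subepithelial cells of library 1 held 0 UMIs, which allows a level of up to 0.00984 per 10,000 at 3 counts over the group, so that muscle-rule cells were at least 68.9-fold higher. In library 2, 26 of 2699 subepithelial cells had a UMI (0.963%), against 0.638% of mesothelial-like cells, and the fold of muscle-rule over subepithelial cells was 38.8. Villus cells, which stood far below subepithelial cells for Acta2, held more Myocd than subepithelial cells: 0.141 and 0.0793 UMIs per 10,000, in 7.67% and 4.09% of cells. With every cell at 2000 UMIs, 1.92% (exact 95% interval 0.964% to 3.41%) and 1.55% (1.17% to 2.02%) of villus cells had a UMI of Myocd, against 0% (0% to 1.30%) and 0.262% (0.105% to 0.539%) of subepithelial cells. The intervals do not overlap in library 2, and in library 1 they do. Counting intervals and floors cover counting error only.

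**Figure D2:**
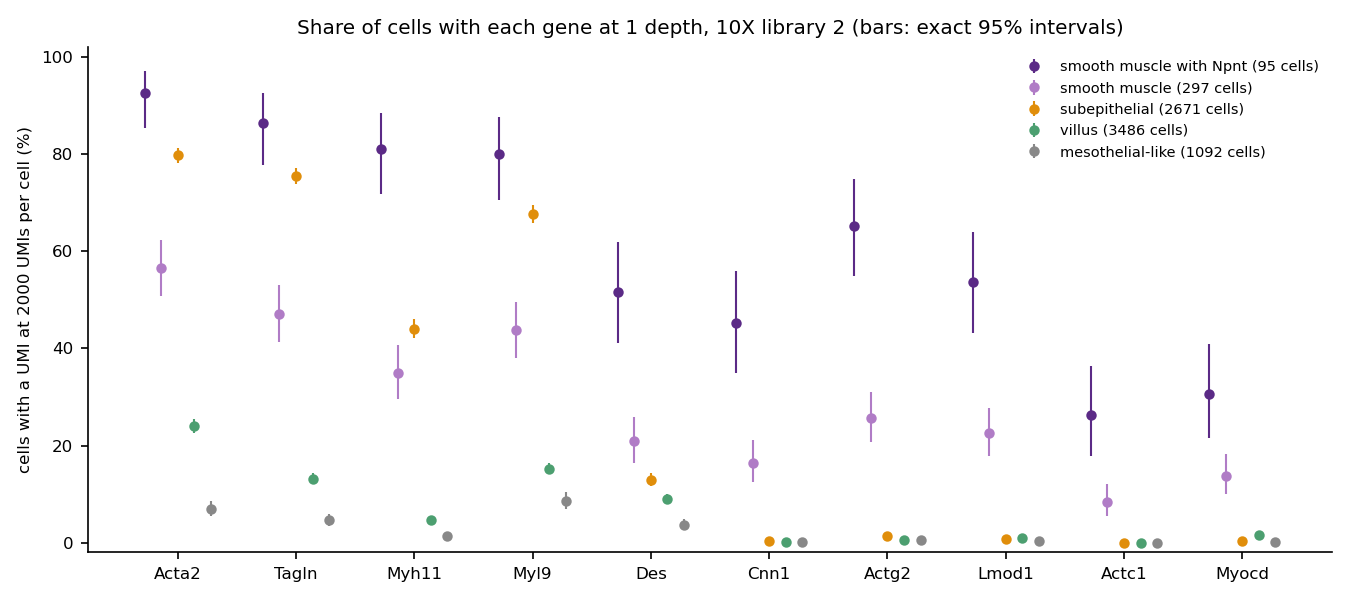
Share of cells (y axis, percent) with a UMI of each member (x axis) after each cell of 10X library 2 was thinned to 2000 UMIs, for 5 groups. Points are shares and bars exact 95% intervals. For Acta2 the subepithelial share of 79.8% lies above that of all muscle-rule cells (56.6%) and below that of muscle-rule cells with Npnt (92.6%), while for Actg2, Lmod1, Cnn1, Actc1 and Myocd the subepithelial share is at most 1.39%.

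Levels of the shared genes in muscle-rule cells relative to subepithelial cells depended on which cells entered. In the fit on the mean natural log values, 1 of the 5 shared genes was higher in muscle-rule cells than in subepithelial cells (Des), against 23.7% of all genes tested, and 4 were lower (Acta2, Tagln, Myh11 and Myl9), against 32.4%. The muscle only genes, whose direction the filter fixed, were also higher. The lower differences were -0.77 ± 0.35 for Acta2 (adjusted p = 0.000189), -0.89 ± 0.28 for Tagln (2.38e-05), -0.27 ± 0.39 for Myh11 (0.0363) and -0.74 ± 0.35 for Myl9 (0.000166). In library 2 Myh11 differed by 0.0084, and its summed UMIs were higher in muscle-rule cells, 1.41-fold and 2.48-fold. None of these 4 calls held on log2 of the mean UMIs per 10,000 (pseudocount 0.1), where Myh11 was called higher by 0.89. The lower call of Myh11 was also lost with no filter (adjusted p = 0.126), with no mean trend (0.0843), with the compared groups alone (0.107) and without the 10% of cells with the highest UMI totals (0.428), and over the alternatives in which its difference lay below 0 its adjusted p ranged from 0.00454 to 0.428.

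With muscle-rule cells restricted to those with Npnt, all 5 shared genes were higher than in subepithelial cells, against 17.5% of all genes tested in that fit (30.7% were lower). Acta2 was higher by 1.13, Tagln by 0.88, Myh11 by 1.58 and Myl9 by 0.75 in mean natural log value (adjusted p between 1.33e-07 and 0.000439). Acta2 then stood at 77.2 and 66.8 UMIs per 10,000 and Myh11 at 30.2 and 27.2. The 43 and 203 muscle-rule cells without Npnt had 5.26 and 6.53 for Acta2, close to Fibin type cells, and 0.376 and 1.42 for Myh11. They carried Pdgfra in 86% and 86.2% and the villus gene Lpl in 72.1% and 81.8% of cells, whereas cells with Npnt carried them in 42.9% and 49.0% and in 42.9% and 46.9%. When the rule was applied to cells thinned to 2000 UMIs, it kept 12 and 81 muscle-rule cells, and the 4 differences were again above 0, at 0.60, 0.35, 1.34 and 0.46, with Tagln not called. The higher call of Des held under each alternative. The muscle only genes also stayed higher, but the filter fixed their direction in the main fit and in the fit with Npnt.

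**Figure D3:**
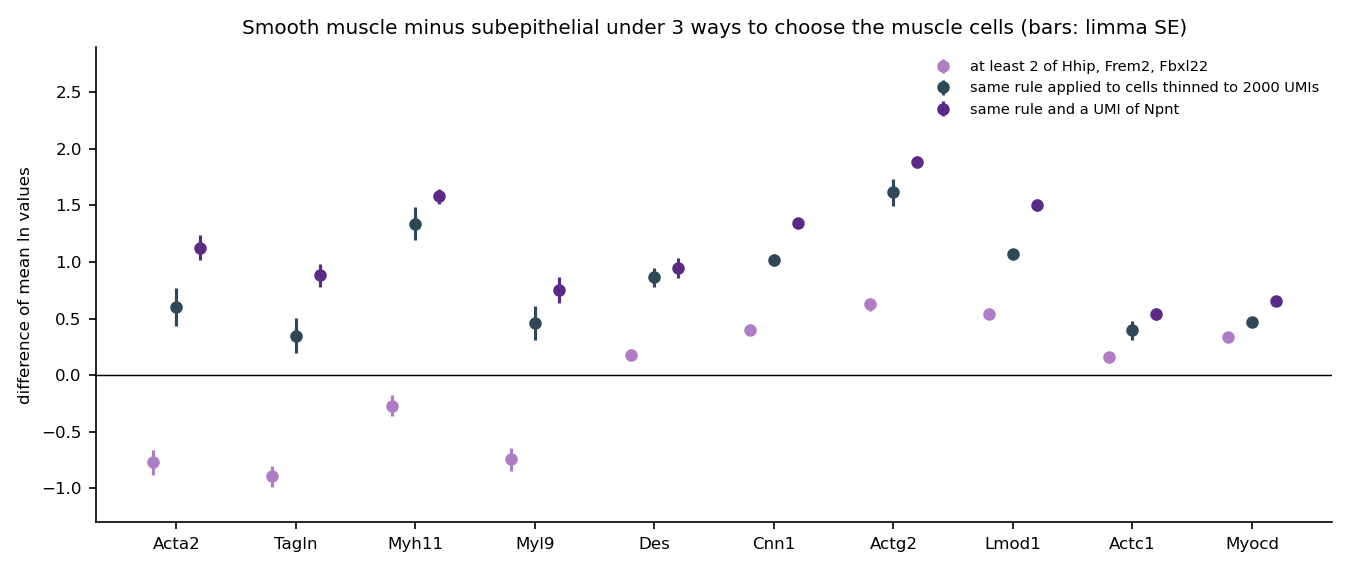
Difference of mean natural log values between smooth muscle (muscle-rule) and subepithelial cells (y axis) for the 10 members (x axis) under 3 ways to choose the muscle-rule cells. Points are the limma estimates over 2 libraries and bars their SE. Acta2, Tagln, Myh11 and Myl9 lie below 0 for the rule as stated and above 0 for the other two ways, while Des, Cnn1, Actg2, Lmod1, Actc1 and Myocd lie above 0 in all 3.

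The number of members per cell showed the same mixture. Subepithelial cells had a median of 4 of the 10 members with a UMI, 86.9% of the 2984 cells had at least 3, 2.41% at least 6, and none had all 10. Muscle-rule cells with Npnt had a median of 8.5, 80.9% of the 110 cells had at least 6, and 25 cells held all 10. Muscle-rule cells without Npnt had a median of 2, and 15.0% of the 246 cells had at least 6. Fibin type cells had a median of 3 and villus cells a median of 1, and 9.34% and 29.9% of their cells had no member at all. The subepithelial distribution was narrow, with 1419 cells at 4 members and 800 at 5, and few cells held more members than the 5 of the shared class.

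**Figure D4:**
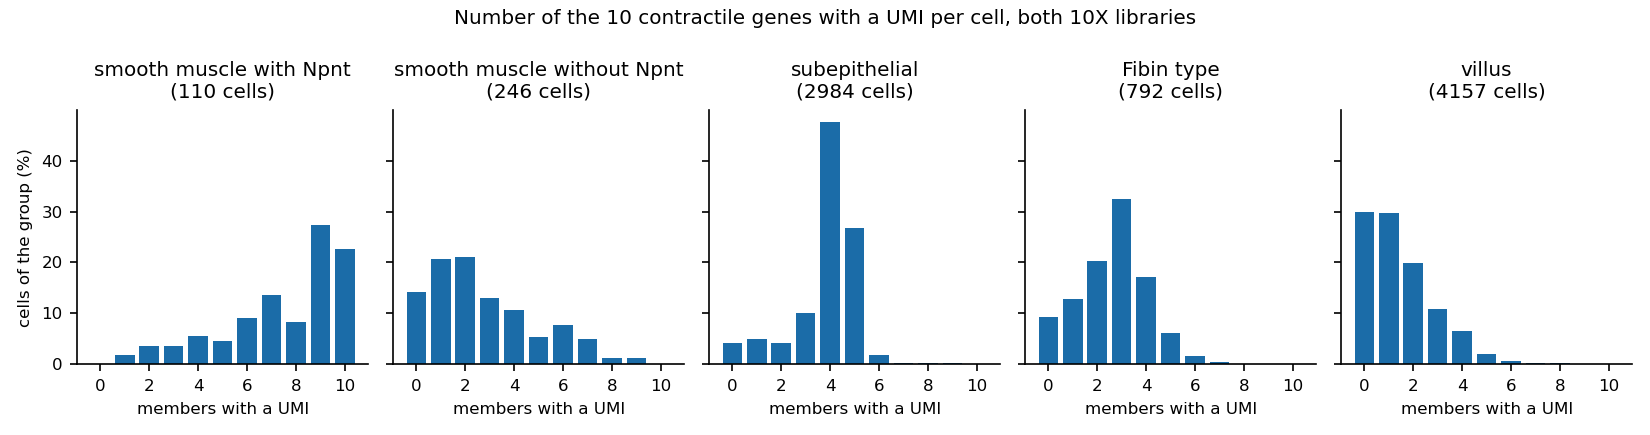
Share of the cells of a group (y axis, percent) by the number of the 10 members with a UMI (x axis), with both 10X libraries together and each cell at its own depth. Subepithelial cells gather at 4 and 5 members and muscle-rule cells with Npnt at 9 and 10, while muscle-rule cells without Npnt gather at 0 to 2.

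Cells that carried the muscle only genes together were few and did not all meet the rule. UMIs of at least 3 of Cnn1, Actg2, Lmod1, Actc1 and Myocd were found in 137 cells, 20 of them in library 1. Of these, 89 were muscle-rule cells, 13 subepithelial, 12 villus, 11 crypt, 10 of no group, 2 Fibin type and 0 mesothelial-like. Among all subepithelial cells, 1 and 60 also met the muscle rule and were kept as subepithelial, and 12 of the 13 just named were among these 61. The 60 of library 2 were deep, with a median of 10677.5 UMIs, and leaving these cells out changed no member's call.

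Within the subepithelial cells, Pla1a, which codes for a phospholipase and splits them, went with 3 of the 5 members tested. Pla1a-positive cells (163 and 1138) were higher than Pla1a-negative cells (122 and 1561) for Acta2, Tagln and Des, against 13.7% of all genes tested in that direction, and no member was lower, against 6.16%. Tagln stood at 25.8 and 20.6 UMIs per 10,000 against 19.7 and 15.8 (difference of mean natural log values 0.56 ± 0.01, adjusted p = 0.00147), and Acta2 at 29.7 and 24.9 against 24.5 and 21.0 (0.43 ± 0.05, adjusted p = 0.0205). Desmin showed the largest fold, 1.73 and 1.93, with 1.35 and 1.13 UMIs per 10,000 against 0.779 and 0.583 (0.27 ± 0.07, adjusted p = 0.00200). Myh11 (0.10 ± 0.08, adjusted p = 0.574) and Myl9 (0.25 ± 0.02, adjusted p = 0.164) were not called, though Myl9 was with the compared groups alone (adjusted p = 0.0233), and the muscle only genes did not pass the filter. Pla1a-positive cells were deeper, at a median of 12114 and 9415.5 UMIs against 9446 and 7456. Their villus marker sum was 30.1 and 36.9 UMIs per 10,000, against 80.3 and 80.9 in Pla1a-negative cells, and 0.538% of them had no member, against 6.77%. The crypt list summed to 0.287 and 1.00 against 0.469 and 2.55, and the mesothelial-like list to 0.422 and 1.13 against 1.35 and 1.83. Markers of interstitial cells of Cajal went the other way, at 3.95 and 3.41 against 2.59 and 2.35. The part of depth was not tested beyond the thinning, and that of these markers' cells was not tested. Acta2 was not called with no filter (adjusted p = 0.0745). With the cells thinned to 2000 UMIs, no member was called, and Des was the sole call left on the log2 scale and among cells with at least 2 UMIs of Sox6.

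Adamts18, which codes for a secreted protease and which the study ties to villus tip telocytes, split off 18 and 178 subepithelial cells. Des was lower in these cells, at 0.338 and 0.406 UMIs per 10,000 against 1.19 and 0.873 in Adamts18-negative cells (-0.18 ± 0.04, adjusted p = 0.0241). It was the sole call among the 6 members tested, against 11.9% of all genes tested being lower and 13.7% higher. The values of the motor genes lay the other way without passing the test: Myh11 stood at 7.05 and 4.63 against 4.66 and 3.64 (0.40 ± 0.17, adjusted p = 0.0505) and Myl9 at 14.2 and 9.40 against 11.1 and 7.41 (0.35 ± 0.05, adjusted p = 0.0807). Acta2 (adjusted p = 0.113), Tagln (0.495) and Actg2 (0.667) were not called. Desmin thus differed in both splits, higher with Pla1a and lower with Adamts18, with adjusted p for Adamts18 between 0.00299 and 0.0683 over the alternatives. It was not called with no filter or without the 10% of cells with the highest UMI totals, and the latter called Acta2, Myh11 and Myl9 higher. The villus marker sum was 92.6 and 107 UMIs per 10,000 with Adamts18 and 45.5 and 56.6 without it. The smooth muscle list summed to 4.68 and 6.74 with Adamts18 and 3.86 and 3.27 without it, the glial list to 2.46 and 1.38 against 3.74 and 3.77, and the crypt list to 0.048 and 1.09 against 0.377 and 1.88. The part of these markers' cells in the result was not tested.

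**Figure D5:**
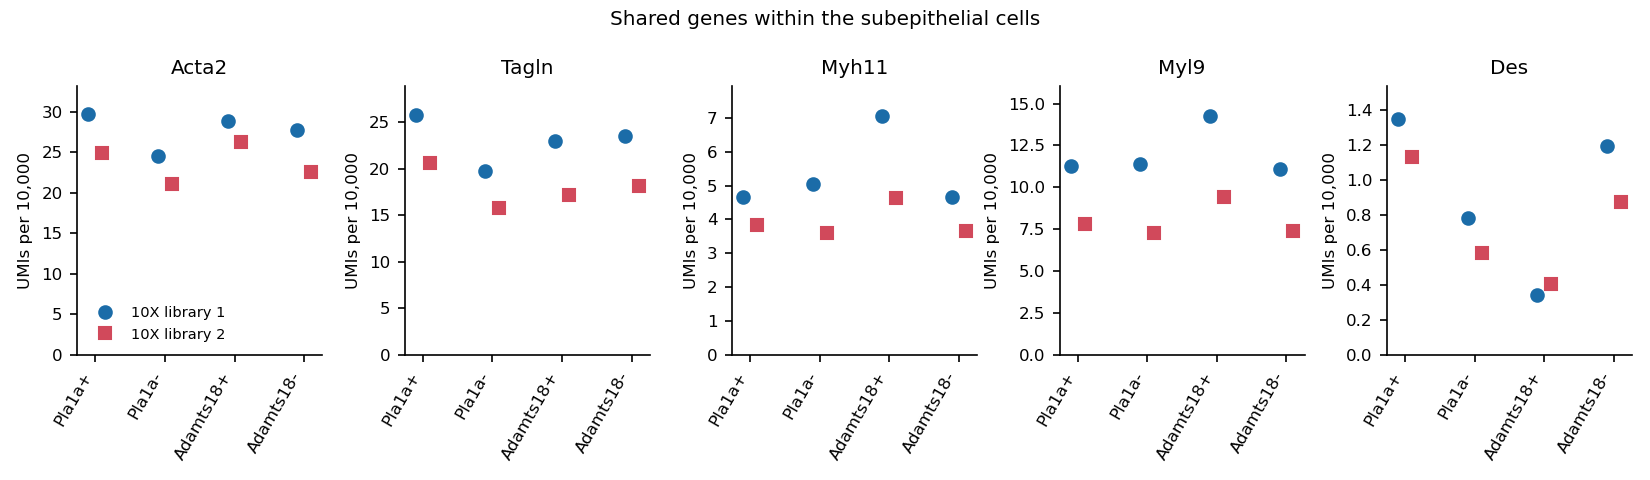
Summed UMIs per 10,000 (linear y axis, 1 per gene) of the 5 shared genes in subepithelial cells with (+) and without (-) a UMI of Pla1a or Adamts18 (x axis), with a circle for 10X library 1 and a square for 10X library 2. Des is higher with Pla1a in both libraries (1.35 and 1.13 against 0.779 and 0.583) and lower with Adamts18 (0.338 and 0.406 against 1.19 and 0.873).

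Other genes of the contractile apparatus followed the shared class more often than the muscle only class. Of 61 listed genes, 40 were in the table and 39 were tested. Of these, 25 were shared, against 10.7% of all genes tested, and 5 were muscle only, against 8.26%. In subepithelial cells 29 of 38 tested were higher than in the other fibroblasts (40.7% of all genes), 3 lower (27.8%) and 6 not called, with a median difference of mean natural log values of 0.35 against 0.02 over all genes. The largest were Mylk, the kinase of the myosin light chain (8.69 and 7.09 UMIs per 10,000 against 1.19 and 1.4), Cald1, the actin-binding caldesmon (23.4 and 16.8 against 5.48 and 5.41), and Palld, the scaffold palladin (10.3 and 6.78 against 1.94 and 1.94). Lower were Atp2a2, the calcium pump SERCA2, Aoc3, an amine oxidase of smooth muscle, and Gucy1a1, a subunit of the nitric oxide receptor, by 0.44, 0.31 and 0.31.

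In muscle-rule cells 30 of 39 tested genes of that list were higher than in the other fibroblasts (22.5% of all genes), 3 lower (18.1%) and 6 not called (median 0.25 against 0.01 over all genes). Mylk (5.86 and 7.40 UMIs per 10,000), the tropomyosin Tpm1 (10.6 and 10.8) and the actin-filament adaptor Pdlim3 (2.38 and 3.56) led, and Atp2a2, Gucy1a1 and Gucy1b1 were lower by 0.44, 0.42 and 0.34. Against subepithelial cells, 9 of 39 were higher, a share near the 23.7% of all genes, 19 were lower, against 32.4%, and 11 were not called (median -0.11 against -0.01). These counts are from mean natural log values. For Mylk, Tpm2 and Flna, all called lower, summed UMIs in muscle-rule cells were 0.674-, 0.838- and 0.989-fold those of subepithelial cells in library 1. In library 2 they were 1.04-, 1.13- and 1.17-fold. Tes, a focal adhesion protein, led the higher genes (1.74 and 2.44 against 0.469 and 0.528), with Aoc3 and Mustn1. Cald1, Palld and Casq2, the calcium store protein calsequestrin, led the lower ones. Casq2 stood at 1.59 and 1.77 UMIs per 10,000 in subepithelial cells against 0.278 and 0.340 in muscle-rule cells. Here too the cells chosen mattered: against muscle-rule cells with Npnt, 25 of 39 were higher in the muscle cells, against 17.5% of all genes, 5 lower, against 30.7%, and 9 not called (median 0.35 against -0.018). Casq2 (-0.33, adjusted p = 1.23e-05) and Cald1 (-0.40, adjusted p = 0.0279) remained lower there than in subepithelial cells, Palld was not called (-0.17, adjusted p = 0.268), and Mylk was higher (0.71, adjusted p = 0.000171). The 5 muscle only genes of the list were Asb2, Hspb1, Lmcd1, Mef2c and Tes. Of the list's higher calls in the comparisons of groups, 2 of 29, 3 of 30 and 2 of 9 (and 2 of 25 with Npnt) were of genes that passed the filter only through the group where they were high, namely Asb2, Casq2, Kcnmb1 and Lmcd1. In the Pla1a split 9 of 37 were higher (13.7% of all genes) and 3 lower, near the 6.16% of all genes (median 0.12 against 0.01). In the Adamts18 split 9 of 38 were higher (13.7% of all genes) and 2 lower (11.9%), with a median of 0.04 against 0.00. Of those 2 lower genes, 1 (Pgm5) passed the filter only through the group where it was high.

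Over the 12 library-by-group means, the genes outside the members with the pattern most like Acta2 were Flna, Tpm2, Mical2, Vcl and Stum (Pearson r from 0.976 to 0.991). Those most like Actg2 were Pcp4l1, Esam, Ctxn1, Nmur2 and Tm6sf1 (r from 0.974 to 0.982). Among the members, Tagln, Myl9 and Myh11 lay near Acta2 (r of 0.994, 0.979 and 0.915), and Cnn1, Actc1, Lmod1 and Myocd near Actg2 (0.994, 0.969, 0.968 and 0.914). Des lay between them, with r of 0.702 to Acta2 and 0.776 to Actg2. The points share 2 libraries and their depth, so these values are descriptions without a test.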

How the data were processed

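Per the labels the reads were aligned to mm10 with Cell Ranger 3.1.0 for 10X, and the submitters' processing notes also name TopHat2 2.1.1, featureCounts and Seurat. The deposited table holds natural log values: the authors filtered cells, scaled each cell to its total UMIs before the log and then merged the platforms. It gave 3891 full gene rows and 1 that ends early and was left out. Divided by the smallest value above 0 of its cell, 100% of 10X values came out whole (relative tolerance 0.01), so UMIs and totals were recovered (scale 10,000). Totals ranged from 559 to 26890 per cell in library 1 and from 465 to 22450 in library 2, and the table's genes hold 23.6% and 22.6% of them. The 739 Smartseq2 cells were not used, since their values are corrected. No doublets were removed here. How strand was treated in counting is not given in the sources used here.

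Mean natural log values per library and group (at least 10 cells) were tested with limma 3.58.1 (R 4.3.3; mean trend, library as block, 6 groups in the fit) over genes with a UMI in at least 5% of the cells of either group, with Benjamini-Hochberg adjustment at 0.05. The mean of 4 groups stood for the other fibroblasts. The SD is that of the 2 library differences. Levels are summed UMIs per 10,000. Shares carry exact (Clopper-Pearson) 95% intervals, at own depth and thinned to 2000 UMIs (seed 7). Named genes were the members, for the wider contractile list the 3 genes of largest difference per direction among those called with the same sign in both libraries, and the 5 genes nearest to Acta2 and to Actg2. The 5 muscle only genes counted per cell and the split by Npnt were chosen after their values were seen. Alternatives were no filter, a log2 scale, no block, no trend, a fit of the compared groups alone, leaving out the 10% of cells with the highest totals, thinning, stricter or exclusive rules and leaving out each library. The members and lists were chosen with earlier results of these data known. Scripts ran in Python 3.11.15 with scipy 1.17.1, numpy 2.4.6, pandas 2.3.3 and matplotlib 3.10.9.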

Additional observations from a re-analysis of the deposited data

Results flagged for a closer look

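Cells that met none of the group rules were outside every comparison, yet 10 of the 1434 carried UMIs of at least 3 of Cnn1, Actg2, Lmod1, Actc1 and Myocd. This is 0.697% of them (exact 95% interval 0.335% to 1.28%). The same was found in 0.436% of subepithelial, 0.289% of villus, 0.253% of Fibin type, 0.192% of crypt and 25.0% of muscle-rule cells, and the difference between cells of no group and these groups was not tested. Cells of no group had a median depth of 4426 and 4280.5 UMIs in libraries 1 and 2, below that of each named group, and the part of depth in their missing the rules was not tested.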

How the results depend on the processing

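Calls in the comparisons of subepithelial and of muscle-rule cells with the other fibroblasts kept their direction and side of the threshold for each tested member in each alternative run, and 606 in place of 1178 genes were called for the former with cells thinned to 2000 UMIs. For the muscle only genes in muscle-rule cells, the filter of the main fit fixed that direction. For muscle-rule minus subepithelial cells, thinning gave 508 in place of 982 genes, 0 members lower, and 0.60, 0.35, 1.34 and 0.46 for Acta2, Tagln, Myh11 and Myl9. The restriction to cells with Npnt, chosen after seeing the data, gave 10 members higher, 0 lower, and 1.13, 0.88, 1.58 and 0.75 for these genes. Of those 10, 5 were the muscle only genes, whose direction the filter fixed. The log2 scale gave 0 members lower and 0.89 for Myh11. Without either library in turn, Myh11 ranged from -0.54 to 0.0084. For Pla1a, the log2 scale called 220 in place of 332 genes, 1 member higher and Myh11 at -0.014, thinning called 23 genes and 0 members, and at least 2 UMIs of Sox6 left 1 member higher and Myh11 at -0.057. For Adamts18, no filter gave 0 members lower, the fit of the compared groups alone 3 higher, and leaving out the 10% of cells with the highest totals 3 higher and 0 lower. Tagln was -0.059 and Actg2 -0.039 on the log2 scale, and Tagln -0.12 with at least 2 UMIs of Sox6. On the log2 scale the share of calls that were higher fell from 69.0% to 45.5% for Pla1a and from 53.5% to 42.4% for Adamts18, and the median of all genes for subepithelial minus other fibroblasts lay at 0.13, against 1.24 for Des and more for the other shared genes. Without the library as replicate block, 1 member (Myh11, adjusted p = 0.0487) was called higher for Adamts18 and no other member's call changed. The causes were not tested, beyond fewer cells and UMIs under thinning. The same replicate numbers of 10X libraries and Smartseq2 plates pair nothing here, since all comparisons lie within libraries. The rule of 3 of 3 muscle genes (4 cells in library 1) and thinning of the Adamts18 split (4 cells) were not run, with under 10 cells. Levels near 1 UMI, as for Actc1 and Myocd in subepithelial cells, limit what depth can show.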
